A study of Homo sapiens with 32 samples.

Results

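Lysosomal enzymes and membrane proteins were followed in RNA of 2 human cell lines, as 39 genes taken by symbol from a list of lysosomal proteins. All 39 symbols were found among the 60107 genes counted. The genes encode 11 cathepsins, 10 glycosidases, 2 sulfatases, 4 lipid hydrolases, 4 lumenal proteins that assist or bind substrates, 2 other hydrolases, 5 membrane proteins and the transcription factor TFEB.

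The lysosome is the acidic compartment in which cells break down proteins, glycans, lipids and nucleic acids that reach it by endocytosis or autophagy. Most of its soluble hydrolases receive a mannose 6-phosphate tag in the Golgi and are sorted by receptors for that tag, and a proton pump, the V-ATPase, keeps the lumen acidic. TFEB and its relatives TFE3, MITF and TFEC bind the E-box CACGTG and variants of it in the promoters of many lysosomal genes, and in fed cells the kinase mTORC1 holds TFEB in the cytosol.

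The study asked how poisoning of topoisomerase I with camptothecin (CPT) and loss of the DNA damage kinase ATM change protein aggregation, and RNA was sequenced to set transcript levels beside the aggregating proteins. HEK293T cells are a line from human embryonic kidney transformed with adenoviral and SV40 genes, and U2OS cells are an osteosarcoma line with wild-type p53. Each library keeps the replicate number of its title. In the later of the 2 deposits, U2OS cells had been treated with CPT (replicates 26 to 29) or its vehicle DMSO (replicates 30 to 33). In the same deposit, HEK293T cells labelled ATM KO (replicates 18 to 21), for which the paper describes RNAseq only of cells given an ATM inhibitor and which are called the ATM inhibitor libraries here, stand beside DMSO controls (replicates 22 to 25). The earlier deposit holds 4 libraries each labelled HEK293T CPT, HEK293T DMSO, U2OS WT and U2OS ATM KO. Per the labels, HEK293T cells were exposed for 24 h and recovered for 48 h, and U2OS cells were left untreated for 72 h. That protocol is also attached to the U2OS libraries labelled CPT or DMSO, whose treatment times it therefore leaves unstated. The paper's methods give 1 scheme for its drug treatments unless stated otherwise, with new medium after 24 h and harvest 48 h later. The labels do not say whether the ATM KO line of U2OS is 1 clone.

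Library totals on genes lay between 1232674 and 6362433 counts, so that 3 counts equalled 0.472 to 2.43 CPM (CPM, a library's counts scaled to a common total over genes). In the earlier deposit, markers contradicted the labelled cell line in every library except replicates 1 and 17. CDKN2A, which the HEK293T libraries of the later deposit held at 247 to 358 CPM and U2OS libraries at 0.883 CPM or less, stood at 0 to 1.37 CPM in the libraries labelled HEK293T CPT and in DMSO replicates 3, 5 and 7. It stood at 151 to 424 CPM in those labelled U2OS ATM KO and in WT replicates 11, 13 and 15. Replicate 1 (U2OS WT) and replicate 17 (HEK293T DMSO), with CDKN2A at 0 and 465 CPM, had the opposite profile from the rest of their label. It was the profile of the line that their label names. Both were left out of the comparisons below unless stated. LIN28B, S100A6, CD44, CAV1 and ANXA1, further markers of the lines, separated the libraries in the same way. NEFL, PAX2 and COL1A2 did not. NEFL, listed for HEK293T, was at 57.4 to 83.5 CPM in the HEK293T and 155 to 180 CPM in the U2OS DMSO libraries of the later deposit. PAX2, also listed for HEK293T, overlapped in the earlier deposit, and COL1A2, listed for U2OS, was near 0 throughout. ATM itself was at 39.8, 39.5, 32 and 28.8 CPM in the libraries labelled U2OS ATM KO, and at 26.6, 21.2 and 34.2 CPM in WT replicates 11, 13 and 15. In the earlier libraries with the U2OS profile it was at 61.7, 52.9, 54.7 and 34.2 CPM (labelled HEK293T CPT). DMSO replicates 3, 5 and 7 had 68.4, 53.4 and 63.5 CPM, and WT replicate 1 had 57.2 CPM. A 3′ tag outside a deletion need not fall with it. Results from these libraries are therefore given by label, with no claim on the condition.

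Stretches upstream of the transcription start are shown for 4 members whose windows hold the E-box that TFEB relatives bind, in GRCh38.p14 from RefSeq and 5′ to 3′ on the strand of the gene, with each CACGTG in capitals. They cover LAMP1 (chr13:113297039-113297238, plus strand), GAA (chr17:80101481-80101580, plus), CTSA (chr20:45891235-45891334, plus) and NEU1 (chr6:31862822-31862971, minus), each ending at the base before the start.
LAMP1: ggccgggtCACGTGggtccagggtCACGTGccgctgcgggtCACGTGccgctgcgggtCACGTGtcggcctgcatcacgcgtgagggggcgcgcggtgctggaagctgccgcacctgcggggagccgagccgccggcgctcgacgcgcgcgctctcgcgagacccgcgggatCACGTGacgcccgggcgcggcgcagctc
GAA: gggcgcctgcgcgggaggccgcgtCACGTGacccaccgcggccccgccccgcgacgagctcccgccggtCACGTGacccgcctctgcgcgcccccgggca
CTSA: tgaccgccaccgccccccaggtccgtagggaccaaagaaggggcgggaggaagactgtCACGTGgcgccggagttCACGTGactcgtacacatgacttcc
NEU1: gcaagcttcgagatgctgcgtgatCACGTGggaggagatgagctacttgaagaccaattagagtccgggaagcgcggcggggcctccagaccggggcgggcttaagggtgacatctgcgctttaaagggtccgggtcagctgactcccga

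Windows of 300 bases around the start, from 250 before to 50 after, were at hand for 28 of the 39 members. CACGTG, which reads the same on both strands, was found in 8 of these 28 (28.6%: CTSA, CTSD, CTSF, GAA, NEU1, LAMP1, CD63 and MCOLN1), against 8.77% of 27305 genes with a window. Its longer forms, which contain it and so overlap it, were TCACGTG on either strand in 7 members (25% against 4.49% of genes) and TCACGTGA in 4 (14.3% against 1.18%: CTSA, GAA, LAMP1 and MCOLN1). LAMP1 held 5 copies within the 200 bases printed above, upstream of the start that RefSeq gives. The bases that follow the start were found in a GENCODE transcript for GAA, CTSA and NEU1, but not for LAMP1. These are matches of letters, not measured binding.

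The comparison of CPT with DMSO in U2OS cells asked which transcripts differ after topoisomerase I poisoning. Lysosomal transcripts were mostly higher in CPT-treated U2OS cells, by modest amounts. Among the 39 members, 24 rose and 2 fell at an adjusted p under 0.05 (edgeR quasi-likelihood test, Benjamini-Hochberg adjusted over 19080 genes, 4 against 4 libraries), where 16.6% of all genes rose and 15.3% fell. The median log2 fold change of the members was 0.51, that of all genes tested 0.01, and 32 of the 39 values were above 0 (50.5% of all genes). Only 5 members also passed a log2 fold change of 1, all upward (7.97% of all genes rose past it and 5.5% fell). Without CPT replicate 28 these were 3. In bulk RNA, fewer cells of a type and less RNA per cell cannot be told apart. Fold changes rest on TMM scaling, while the CPM values below are scaled to library totals. With totals in place of TMM the median of all genes moved to −0.16, that of the members to 0.34, and 18 members rose and 3 fell. Past the log2 fold change of 1 the split was then 2 up and 1 down, the latter CTSO (log2 fold change −1.10), since FUCA1 (0.94) and ARSA (0.96) then lay under 1 and CTSS lost its adjusted p.

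**Figure D1:**
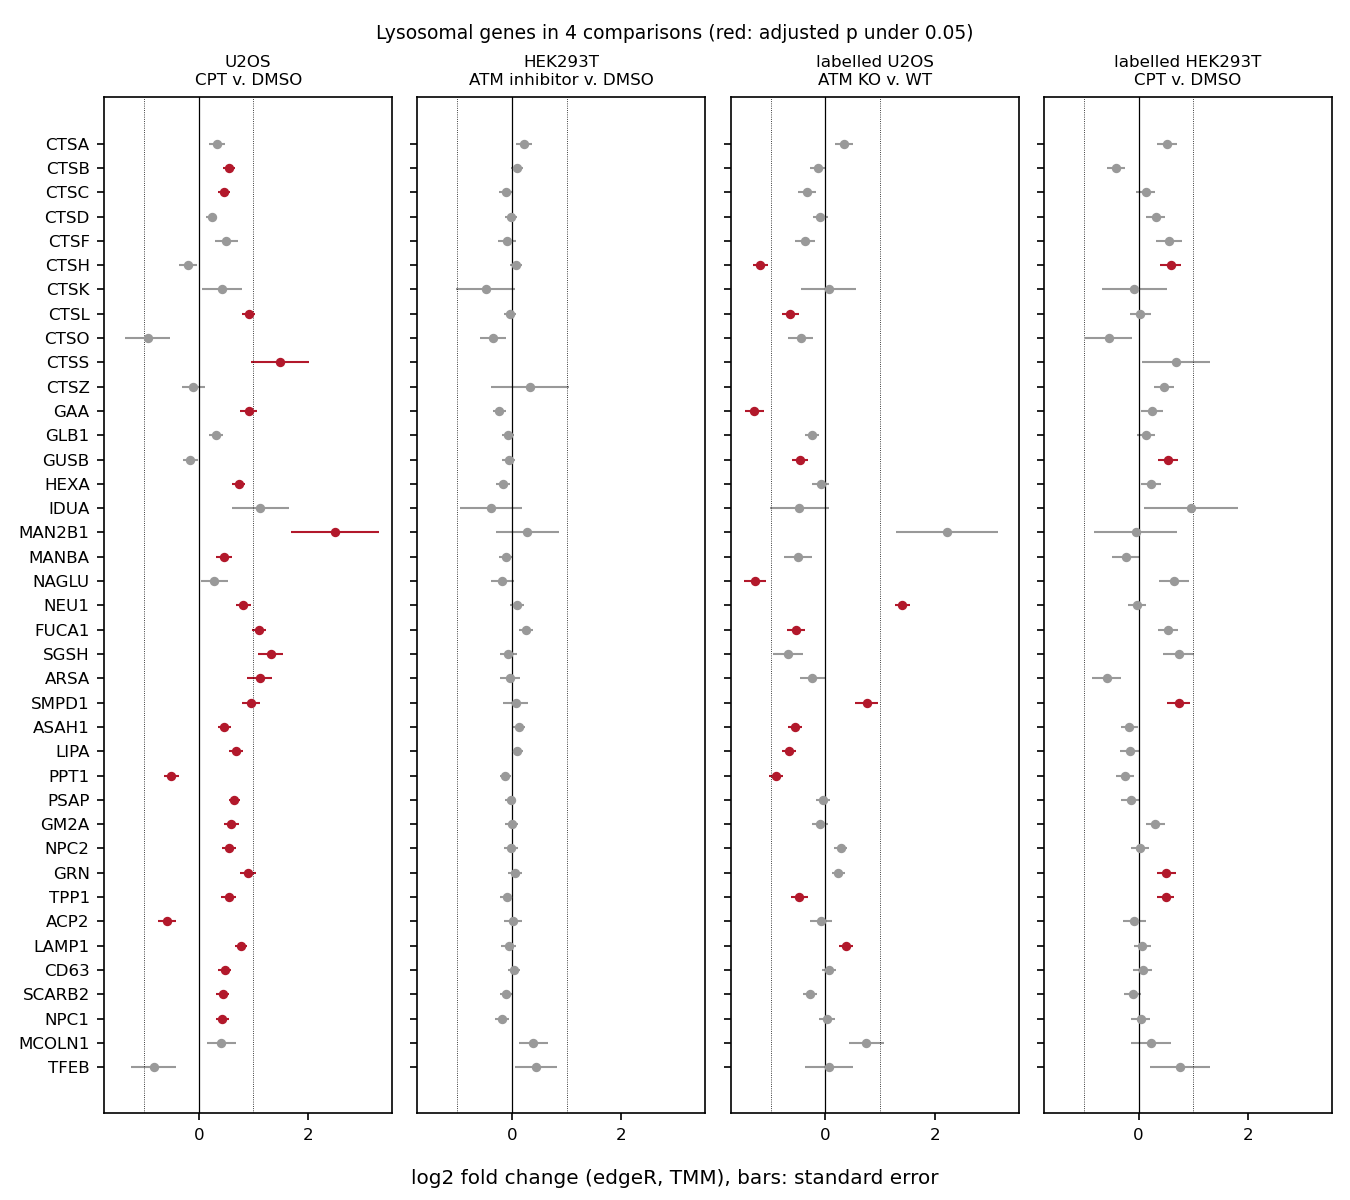
Log2 fold change (x axis) with its standard error for each lysosomal gene (y axis) in 4 comparisons, one panel each; red points have an adjusted p under 0.05 and dotted lines mark a log2 fold change of 1 in either direction. In U2OS cells 24 genes lie above 0 in red, and with the ATM inhibitor none is red; CTSS is not drawn where it was not tested or where the control libraries held no count.

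Among the glycosidases, which trim sugars from glycoproteins, glycolipids and glycogen, 6 of 10 rose. FUCA1, the alpha-L-fucosidase, was at 79.4, 69.5, 72.7 and 60.5 CPM with CPT and at 34.6, 39.2, 34.6 and 38.5 CPM with DMSO. Each CPT library thus lay above each DMSO library, and the log2 fold change was 1.11 ± 0.13 (SE, adjusted p = 3.38e-08, edgeR). GAA, the acid alpha-glucosidase that degrades glycogen, was at 51.5, 45.0, 44.3 and 54.0 CPM against 24.4, 38.2, 22.9 and 31.2 CPM, again without overlap (log2 fold change 0.91). NEU1, a sialidase that works in a complex with CTSA, was at 150, 161, 146 and 134 CPM against 67.6, 124, 86.4 and 98.1 CPM (log2 fold change 0.82). HEXA, the alpha subunit of hexosaminidase, rose by 0.73 and the beta-mannosidase MANBA by 0.46 on the log2 scale.

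MAN2B1, the lysosomal alpha-mannosidase, passed the threshold on very few counts. It had 0.883, 1.55, 2.08 and 0.624 CPM with CPT and 0, 0.344, 0.586 and 0 CPM with DMSO, that is 16 counts against 3 over the groups. The ratio of pooled levels was 5.75, with a 95% counting interval from 1.65 to 30.8 (exact binomial). Its call was lost with DESeq2 (adjusted p = 0.0532) and without replicate 28 or replicate 33. The 4 glycosidases that did not pass were GLB1 (log2 fold change 0.31), GUSB (−0.15), IDUA (1.13, adjusted p = 0.0962 in edgeR) and NAGLU (0.29).

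Both sulfatases rose past the threshold, ARSA no longer so with library totals in place of TMM. SGSH, which removes sulfate from heparan sulfate, was at 12.4, 13, 11.8 and 8.42 CPM with CPT and at 6.17, 5.51, 5.57 and 3.60 CPM with DMSO. The groups did not overlap, as held for 31.3% of all genes, and the log2 fold change was 1.32 ± 0.23. ARSA, which desulfates sulfatide, was at 21.8, 13, 19 and 23.1 CPM against 5.25, 14.8, 7.91 and 11.8 CPM. Here the lowest CPT library lay below the highest DMSO library, and the log2 fold change was 1.12 ± 0.23 (adjusted p = 2.75e-04, edgeR).

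The lipid hydrolases split, with 3 rising and 1 falling. SMPD1, the acid sphingomyelinase, was at 51.2, 43.1, 44.0 and 42.7 CPM with CPT and at 23.5, 18.9, 24.6 and 35.6 CPM with DMSO, and rose by 0.96 on the log2 scale. LIPA, the acid lipase that hydrolyses cholesteryl esters, rose by 0.68, and ASAH1, the acid ceramidase, by 0.46. PPT1, which removes palmitate from proteins, moved the other way. It was at 158, 182, 211 and 196 CPM with CPT against 229, 385, 271 and 302 CPM with DMSO, without overlap, and fell by 0.50 on the log2 scale (adjusted p = 0.00399, edgeR). The acid phosphatase ACP2 also fell, from a mean of 27.9 ± 3.98 CPM to 16.6 ± 3.31 CPM (SD, n = 4 each), by 0.58 on the log2 scale.

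**Figure D2:**
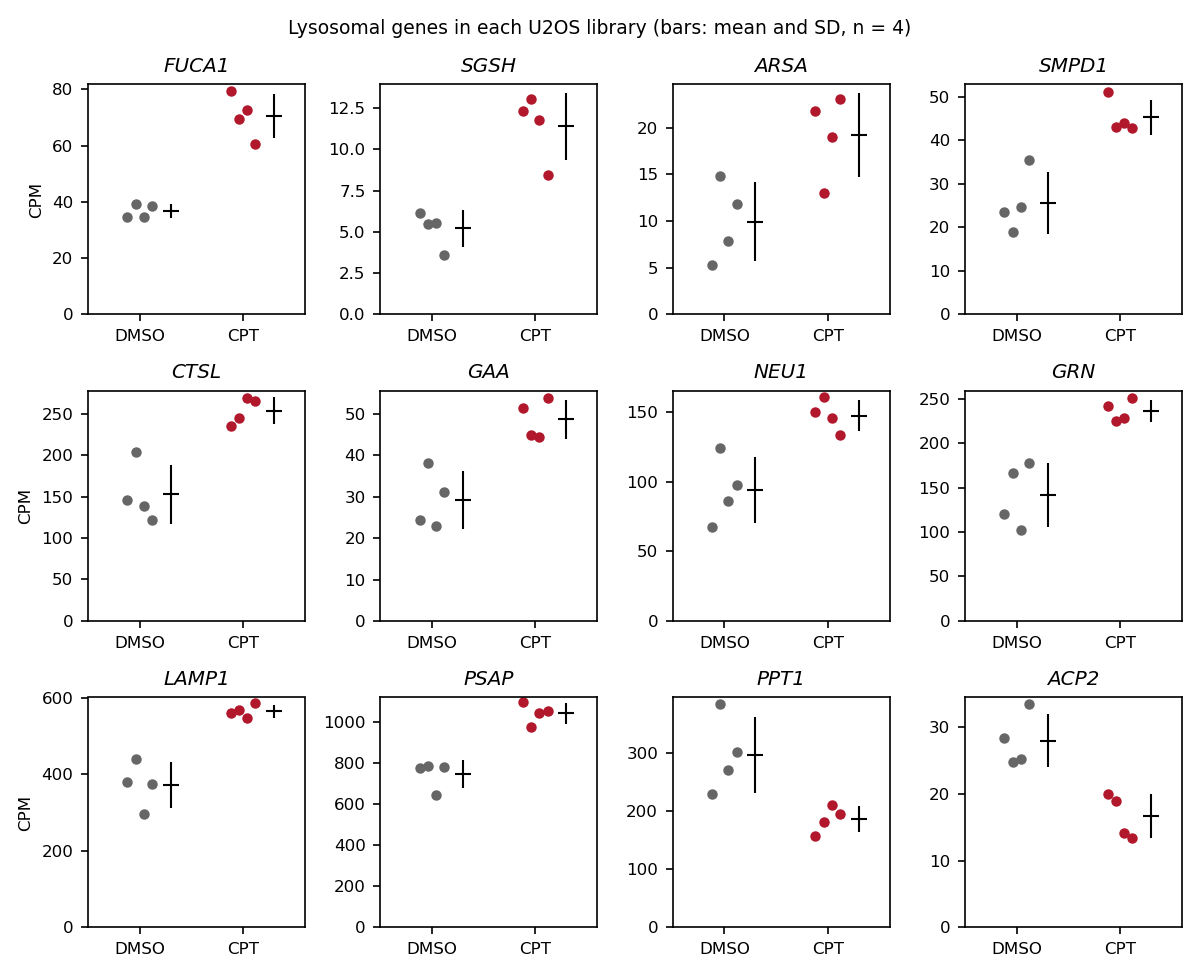
CPM (y axis, from 0) of 12 lysosomal genes in each U2OS library (points), with the mean and SD of the 4 DMSO and 4 CPT libraries beside them. FUCA1, SGSH, SMPD1, CTSL, GAA, NEU1, GRN, LAMP1 and PSAP are higher in every CPT library than in every DMSO library, PPT1 and ACP2 are lower, and ARSA overlaps.

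Of the 11 cathepsins, the main lysosomal proteases, 4 rose. CTSL, an endopeptidase of the cysteine class, was at 235, 245, 268 and 266 CPM with CPT and at 145, 204, 139 and 122 CPM with DMSO, and rose by 0.91 on the log2 scale. CTSB, also a cysteine protease, was at 548, 601, 597 and 560 CPM against 412, 445, 395 and 504 CPM (log2 fold change 0.56). CTSC, which activates granule serine proteases in immune cells, stood between 161 and 172 CPM against 113 to 157 CPM (log2 fold change 0.46). The aspartic protease CTSD did not pass the test, with 119 ± 3.14 against 114 ± 3.76 CPM (SD, n = 4) and a log2 fold change of 0.23. Nor did CTSA (0.34), CTSF (0.51), CTSH (−0.19), CTSK (0.42), CTSO (−0.94, adjusted p = 0.0875 in edgeR) or CTSZ (−0.10).

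CTSS, a cathepsin of antigen-presenting cells, passed the threshold at 2.35, 1.24, 2.42 and 1.56 CPM against 0.926, 1.03, 0.293 and 0.721 CPM. These are 24 against 10 counts, and the ratio of pooled levels was 2.59 (95% counting interval 1.19 to 6.07, exact binomial). The adjusted p was 0.0292 with edgeR and 0.0943 with DESeq2, and the call was lost without replicate 26, 28 or 32. Markers of macrophages and osteoclasts, which express CTSS and CTSK strongly, moved with it. Their summed level was 5.27 to 7.65 CPM with CPT and 1.38 to 2.05 CPM with DMSO over 8 genes. Of these, 5 were tested and 2 passed, ITGAM (24 counts against 0, at least 8.63-fold higher against 3 counts over the group) and ACP5 (12 against 0, at least 4.32-fold). ITGAM had 13 of its counts in replicate 26, where ACP5 had 0. AIF1 and DCSTAMP were at 0 in all 8 libraries, and CD14 at 0 with CPT. The part of this in the CTSS result was not tested.

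All 4 lumenal cofactors rose. GRN, progranulin, which is needed for normal lysosomal function, was at 236 ± 12.2 CPM with CPT and 142 ± 36.3 CPM with DMSO (SD, n = 4), a log2 fold change of 0.90. PSAP, the precursor of the saposins that present sphingolipids to their hydrolases, was at 1099, 977, 1044 and 1053 CPM against 777, 786, 645 and 782 CPM (log2 fold change 0.65). GM2A, the activator of ganglioside hydrolysis, rose by 0.60 and NPC2, which hands cholesterol to NPC1, by 0.55. The peptidase TPP1 rose by 0.55 as well.

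Among the membrane proteins 4 of 5 rose. LAMP1, one of the most abundant glycoproteins of the lysosomal membrane, was at 559, 567, 545 and 585 CPM with CPT and at 379, 440, 295 and 373 CPM with DMSO. The groups stood well apart, with a log2 fold change of 0.78 ± 0.11 (adjusted p = 1.98e-06, edgeR). The tetraspanin CD63 rose by 0.47, from 1043 ± 101 to 1280 ± 154 CPM (SD, n = 4), with overlapping groups. SCARB2, also known as LIMP-2, was at 255, 245, 265 and 251 CPM against 198, 263, 190 and 196 CPM and rose by 0.43, and the cholesterol exporter NPC1 rose by 0.43. The calcium channel MCOLN1 had 6.18 against 5.39 CPM and did not pass. With totals in place of TMM, 6 of the 24 members that rose no longer passed, CTSS, CTSC, MANBA, ASAH1, SCARB2 and NPC1 (log2 fold changes 1.33, 0.28, 0.29, 0.29, 0.26 and 0.26).

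TFEB was scarce, at 2.06, 1.55, 1.04 and 0.936 CPM with CPT against 3.09, 2.06, 3.22 and 2.88 CPM with DMSO, the groups meeting near 2.06 CPM, and its log2 fold change of −0.82 ± 0.41 did not pass (adjusted p = 0.131, edgeR). A relative of it did. TFEC was at 17.9, 14.6, 20.4 and 20.6 CPM with CPT and at 0.617, 0.344, 0.293 and 0.240 CPM with DMSO. With 233 against 5 counts the ratio of pooled levels was 50.3 (95% counting interval 21.2 to 156, exact binomial). MITF was at 24.4, 20.8, 30.1 and 26.2 CPM against 14.5, 7.23, 7.32 and 10.8 CPM, a log2 fold change of 1.5 ± 0.19. Of the 13 TFEB pathway regulators tested, these 2 and RRAGC, RRAGD and FNIP2 rose, the last 3 by 0.42 to 0.45 (16.6% of all genes rose and 15.3% fell). Of the 8 members with CACGTG in the promoter window 4 rose (median log2 fold change 0.49), and of the 20 whose window lacks it 12 rose and 2 fell (median 0.50).

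**Figure D3:**
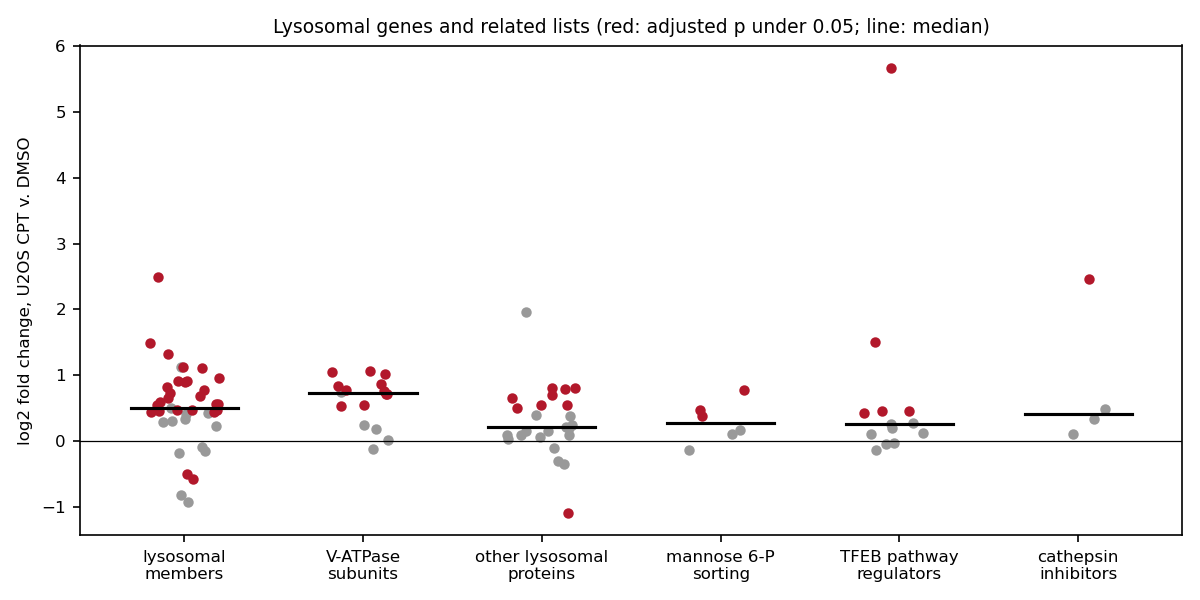
Log2 fold change in CPT-treated against DMSO-treated U2OS cells (y axis) for the lysosomal genes and for 5 related lists (x axis), one point per gene tested; red points have an adjusted p under 0.05 and the line marks the median. The median is 0.51 for the lysosomal members and 0.73 for the V-ATPase subunits; TFEC is the point at 5.67.

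Other lysosomal genes, listed with earlier results of these data known, were counted beside the members. Of all genes 16.6% rose and 15.3% fell. Of the V-ATPase subunits, 16 of 17 were tested and 11 rose, with a median log2 fold change of 0.73. ATP6V0D1 (1.07), ATP6V0A1 (1.05) and ATP6AP2 (1.02) passed a log2 fold change of 1, and ATP6AP2 went from 158 ± 15.9 to 283 ± 6.55 CPM (SD, n = 4). Of 25 other lysosomal enzymes and membrane proteins 8 rose and 1 fell, with a median of 0.22. The one that fell was CTSV, a cathepsin close to CTSL in sequence, from 234 ± 49.6 to 96.8 ± 2.25 CPM. FUCA2, a fucosidase, rose by 0.80 and LAMP2, a membrane glycoprotein related to LAMP1, by 0.65. Of 6 genes of mannose 6-phosphate sorting 3 rose, IGF2R by 0.77, M6PR by 0.46 and GNPTG by 0.37. Among 4 cathepsin inhibitors CSTA rose, from 1.69 to 8.72 CPM.

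Other changes accompanied these. The p53 targets CDKN1A, MDM2 and GDF15 rose by 2.24, 2.0 and 3.63 on the log2 scale. Of 5 U2OS markers CAV1, CD44, S100A6 and ANXA1 rose, and their summed level was 1055 to 1193 CPM with CPT against 408 to 454 CPM with DMSO, with COL1A2 near 0 in both. The share of reads that the counter assigned to no gene was 31.6% to 40.6% with CPT and 34.3% to 39.3% with DMSO. The part of any of these in the lysosomal changes was not tested.

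The comparison of the ATM inhibitor with DMSO in HEK293T cells asked for the same genes after loss of ATM activity. None of the 38 members tested passed with edgeR's quasi-likelihood test or with DESeq2, against 0.00543% of 18413 genes, and 1 member, GAA, had an unadjusted p under 0.05 (5.53% of all genes). GAA was at 44.0, 40.4, 39.9 and 49.7 CPM with the inhibitor and at 56.2, 52.3, 50.6 and 53.6 CPM with DMSO, without overlap (3.07% of all genes). Its log2 fold change was −0.23 ± 0.11 (adjusted p = 0.894, edgeR). The members' fold changes ran from −0.48 (CTSK, SE 0.54) to 0.44 (TFEB, SE 0.38), with a median of −0.03 and a median SE of 0.13. FUCA1 was at 43.8 against 38.4 CPM, NEU1 at 34.2 against 33.4 CPM and LAMP1 at 84.3 against 91.2 CPM. CTSS held 1 count with the inhibitor and 2 with DMSO and was not tested.

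These 2 treatments differ in cell line as well as in agent. In one fit of 30 libraries, the log2 fold change of 16 members was higher for CPT in U2OS cells than for the ATM inhibitor in HEK293T cells, and of none lower, at an adjusted p under 0.05 (11.9% of all genes in either direction, edgeR quasi-likelihood test, Benjamini-Hochberg adjusted). The difference was 1.39 for SGSH, 1.16 for ARSA, 1.15 for GAA and 0.95 for CTSL. With library totals in place of TMM, 10 members passed.

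Libraries labelled U2OS ATM KO were compared with those labelled U2OS WT, the members in this pair moving in both directions. Of 38 members tested 4 were higher and 10 lower in the labelled ATM KO libraries at an adjusted p under 0.05 (15.8% of all genes were higher and 16.3% lower, edgeR, 4 against 3 libraries), with a median log2 fold change of −0.19 against 0.03 for all genes. Past a log2 fold change of 1 were 2 higher and 3 lower (8.67% and 4.63% of all genes).

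NEU1 was higher in the labelled ATM KO libraries. It stood at 115, 100, 90.2 and 106 CPM in the labelled ATM KO libraries and at 38.6, 38.4 and 36.2 CPM in those labelled WT. The groups were far apart and the log2 fold change was 1.41 ± 0.14 (adjusted p = 1.37e-08, edgeR). CTSS had 0.919, 2.47, 2.88 and 1.41 CPM against 0 in all 3 WT libraries, at least 9.88-fold higher against 3 counts over the group. SMPD1, at 12.9, 15.1, 11.8 and 17.8 CPM against 8.25, 9.48 and 7.33 CPM, was higher by 0.75 on the log2 scale, and LAMP1 by 0.37. The LAMP1 call was lost in 1 fit of all groups (adjusted p = 0.0658, edgeR) and without replicate 10, 12, 13 or 15 (adjusted p from 0.0533 to 0.164).

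Lower in the labelled ATM KO libraries were 3 hydrolases past a log2 fold change of 1. GAA was at 19, 13, 14.1 and 22.2 CPM against 45.5, 40.3 and 39.1 CPM (log2 fold change −1.30). CTSH, an aminopeptidase among the cathepsins, was at 27.9, 29.6, 31.3 and 36.1 CPM against 70.6, 74.0 and 64.2 CPM (−1.19). NAGLU, which degrades heparan sulfate, was at 6.74, 6.17, 8.64 and 6.92 CPM against 17.9, 17.1 and 15.3 CPM (−1.28). These 3 were among 17 members without overlap between the groups (35.6% of all genes). PPT1 (−0.91), LIPA (−0.66), CTSL (−0.64), ASAH1 (−0.56), FUCA1 (−0.54), TPP1 (−0.47) and GUSB (−0.47) were lower by less, and the FUCA1 call was lost without replicate 13 or 14. CTSZ, with 2 counts against 0, was not tested.

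**Figure D4:**
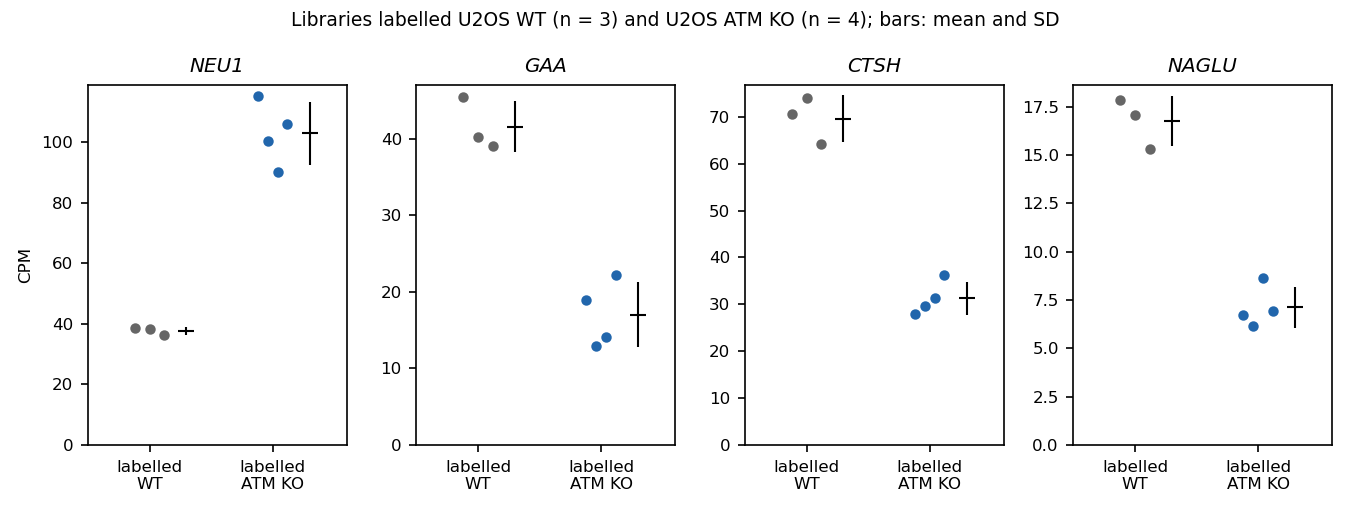
CPM (y axis, from 0) of NEU1, GAA, CTSH and NAGLU in the libraries labelled U2OS WT (3 points) and U2OS ATM KO (4 points), with the mean and SD of each. NEU1 is higher and the other 3 are lower in every labelled ATM KO library, and markers of the cell line contradict both labels.

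Of the V-ATPase subunits 9 of 17 were higher and 1 lower (median log2 fold change 0.36), with ATP6V1D higher by 1.12. Of all genes 15.8% were higher and 16.3% lower. Of 25 other lysosomal genes 2 were higher and 7 lower (median −0.22), the peptidase DPP7 with a log2 fold change of −1.55 and AGA, which cleaves glycans from asparagine, of −1.16. Of 6 sorting genes GNPTAB was lower. TFEC had 21 counts against 0, at least 7.15-fold higher, and 6 of 13 TFEB pathway regulators in all were higher. CDKN1A, MDM2 and GDF15 were higher too, by 2.14, 1.14 and 2.67 on the log2 scale. Of the U2OS markers 3 were tested and 2 were higher, ANXA1 at 32.3 against 4.69 CPM and CAV1 at 40.5 against 19.4 CPM. The 5 genes summed to 66.0 to 82.2 against 21 to 27.6 CPM, with S100A6 at 0 in all but 1 library, and the 4 HEK293T markers to 337 to 494 against 424 to 635 CPM. The part of these differences in the lysosomal values was not tested. All 4 libraries of each label, replicate 1 included, gave 4 members at an adjusted p under 0.05 in place of 14, and among those lost were NEU1 (log2 fold change 0.91, adjusted p = 0.167, edgeR) and CTSH (−0.99, adjusted p = 0.0622), while LAMP1 had a log2 fold change of −0.52 that did not pass. With replicate 17 added to the WT libraries by column number, 4 were higher and 14 lower.

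Few members passed in libraries that carry the label HEK293T CPT, set against those with the label HEK293T DMSO. Of the 39 members none passed a log2 fold change of 1 with edgeR or DESeq2, where 4.46% of all genes did, though 13 had an unadjusted p under 0.05 (23% of all genes). At an adjusted p under 0.05, 5 were higher and none lower (4.89% and 5.55% of all genes, 4 against 3 libraries). The 5 were SMPD1 (log2 fold change 0.73), CTSH (0.59), GUSB (0.54), GRN (0.51) and TPP1 (0.50). SMPD1 was at 16.2, 26.9, 27.1 and 28.7 CPM in the labelled CPT libraries and at 11.7, 19.2 and 14.5 CPM in the labelled DMSO libraries, so that the lowest CPT library lay within the DMSO range. TPP1 was at 109, 130, 139 and 141 CPM against 79.2, 97.7 and 98.7 CPM, without overlap (5 members in all, 17.5% of all genes). The number called rested on single libraries, being 0 without replicate 4, 6 or 7, 1 without replicate 3 and 9 without replicate 5 or 8, and it was 0 with all 4 libraries of each label. The 1 call without replicate 3 was CTSB, which was lower (log2 fold change −0.60, adjusted p = 0.0348, edgeR), as it was without replicate 8 (−0.49). With replicate 1 added to the DMSO libraries by column number, CTSA (0.50, adjusted p = 0.0331, edgeR) and FUCA1 (0.54, adjusted p = 0.0224) passed as higher too. The U2OS markers, of which 3 of the 4 tested were higher, summed to 673 to 943 CPM against 467 to 645 CPM. Of the HEK293T markers 1 of the 3 tested was higher, PAX2 at 7.17 against 2.74 CPM, and the 4 summed to 73.8 to 159 CPM against 103 to 159 CPM. Most of that sum was NEFL (51.9 to 134 CPM against 86.1 to 141 CPM), which was higher in U2OS than in HEK293T cells under DMSO. Of the 3 p53 targets GDF15 was higher by 1.15 on the log2 scale. The part of these in the members' values was not tested. The median log2 fold change of the members was 0.14, and TFEB, at 1.62, 0, 3.30 and 3.78 CPM against 0.865, 1.37 and 2.18 CPM, did not pass. Of the V-ATPase subunits 3 of 17 were higher and 2 lower, with ATP6V0A1 higher by 2.41 and ATP6V1A by 1.03. Of the other lysosomal genes 2 of 25 were higher and 2 lower, DPP7 with a log2 fold change of 1.44 and SIAE of −1.22. TFEC was higher at 3.24, 2.89, 2.08 and 2.06 CPM against 0.433, 0 and 1.09 CPM.

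Set against these labelled comparisons in the same fit of 30 libraries, the fold changes of CPT in U2OS cells were higher for 20 members and lower for 2 than those of the labelled ATM KO libraries (18.4% of all genes). The largest differences were 2.20 for GAA, 2.02 for SGSH, 1.65 for FUCA1 and 1.57 each for NAGLU and CTSL among those higher. Lower were NEU1, by −0.58, and CTSS, for which the labelled WT libraries held no count and no size is given here. Against the labelled HEK293T CPT libraries 9 were higher and 2 lower (14.6% of all genes), among them ARSA (1.68), CTSB (0.95), CTSL (0.86) and NEU1 (0.84) and, lower, CTSH (−0.80) and GUSB (−0.71). With library totals in place of TMM the splits were 12 higher and 3 lower, and 6 higher and 3 lower. The 4 comparisons share no library. By markers, the libraries labelled U2OS ATM KO and WT used here had the HEK293T profile, and those labelled HEK293T CPT and DMSO that of U2OS. Both sets come from the earlier deposit and U2OS CPT from the later one. Condition, cell line and deposit therefore cannot be told apart in the differences from the labelled U2OS ATM KO libraries. Against the labelled HEK293T CPT libraries the marker profile was that of U2OS on both sides, though the label names another line. Condition and deposit cannot be told apart there.

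Levels of the members also differed between the cell lines under DMSO, a comparison that shares its libraries with the controls of the first and second comparisons. Past a log2 fold change of 1, 14 of 39 members were higher and 2 lower in U2OS than in HEK293T cells (21.8% and 18.1% of all genes, edgeR quasi-likelihood test, Benjamini-Hochberg adjusted, 4 against 4 libraries). At an adjusted p under 0.05 and any fold these were 20 and 6 (32% and 30.1% of all genes), with a median log2 fold change of 0.59 against 0.01. Library totals in place of TMM moved the median of all genes to −0.21 and the splits to 12 and 5, and to 18 and 11.

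CTSZ, a carboxypeptidase, had the largest fold change between the lines, at 74.1, 158, 98.1 and 168 CPM in U2OS and at 1.20, 0.286, 0.752 and 0.296 CPM in HEK293T cells. With 1733 against 9 counts the ratio of pooled levels was 199 (95% counting interval 105 to 437, exact binomial). CTSB was at 412, 445, 395 and 504 CPM against 82.6, 77.1, 94.2 and 93.9 CPM (log2 fold change 2.56). CTSC followed at 138, 157, 139 and 113 CPM against 50.5, 45.1, 49.4 and 42.1 CPM (1.77). CTSA, the protective protein of the sialidase complex, stood at 46.6, 72.6, 56.5 and 75.2 CPM against 20.6, 19.1, 29.6 and 28.1 CPM (1.59). Its partner NEU1 was at 67.6, 124, 86.4 and 98.1 CPM against 35.9, 27.7, 37.8 and 32.3 CPM (1.72). These cathepsins and NEU1 did not overlap between the lines. CTSK, the collagen-degrading cathepsin of osteoclasts, passed at 4.01, 2.75, 1.46 and 2.40 CPM against 2.09, 0.857, 1.75 and 1.18 CPM, with overlap (log2 fold change 1.04). CTSS passed on 10 counts against 2, at 0.926, 1.03, 0.293 and 0.721 CPM against 0.299, 0.286, 0 and 0 CPM. Both calls were lost with DESeq2 (adjusted p = 0.0807 and 0.0849) and on leaving out single libraries, replicates 23, 25 and 30 for CTSK and replicates 24, 25, 30, 31 and 33 for CTSS.

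**Figure D5:**
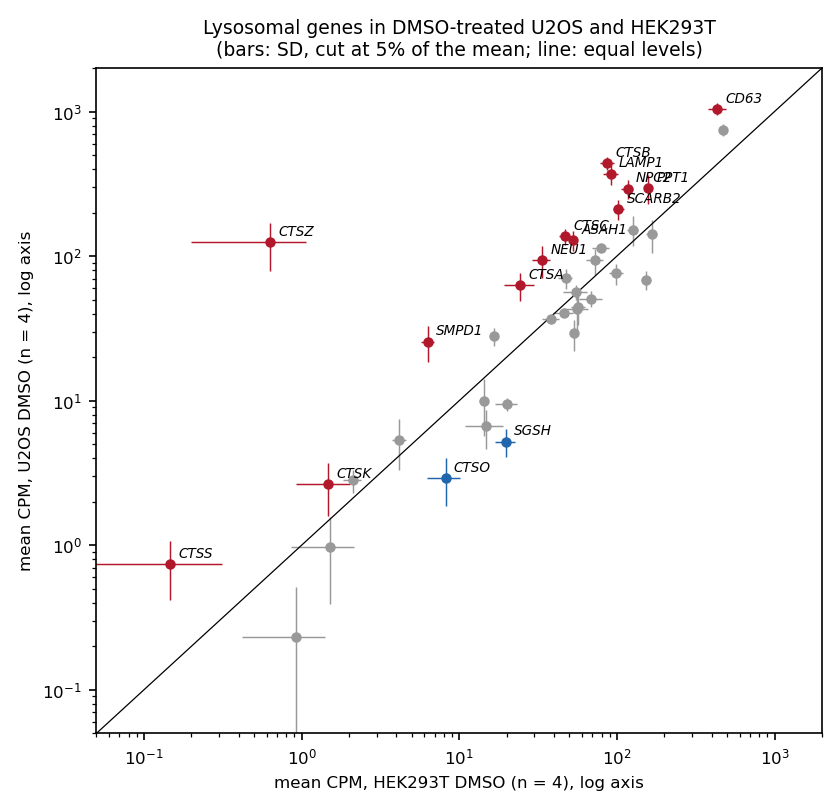
Mean CPM of each lysosomal gene in DMSO-treated HEK293T cells (x axis) and U2OS cells (y axis), both log axes, with the SD over 4 libraries each (shortened where it would reach below 0); the line marks equal levels, and red and blue points passed the threshold upward and downward. CTSZ lies at 125 CPM in U2OS and 0.632 CPM in HEK293T cells, and SGSH and CTSO lie below the line.

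The membrane proteins were among those higher in U2OS cells. LAMP1 was at 379, 440, 295 and 373 CPM against 102, 79.7, 96.9 and 86.2 CPM (log2 fold change 2.25 ± 0.12). CD63 was at 1119, 1142, 952 and 961 CPM against 461, 354, 481 and 439 CPM (1.49). SCARB2 was at 198, 263, 190 and 196 CPM against 93.9, 103, 113 and 98.9 CPM (1.27). These membrane proteins were higher in each U2OS library than in each HEK293T library. Enzymes of lipid breakdown and NPC2 were higher as well. SMPD1 was at 23.5, 18.9, 24.6 and 35.6 CPM against 5.68, 6.0, 6.76 and 6.81 CPM (2.26). ASAH1 was at 119, 153, 108 and 136 CPM against 55.9, 48.8, 51.1 and 55.1 CPM (1.51). For PPT1 the values were 229, 385, 271 and 302 CPM against 159, 155, 163 and 152 CPM (1.14). NPC2 was at 240.2, 346, 277 and 306 CPM against 128, 104.5, 123 and 113 CPM (1.55), and none of these genes overlapped between the lines (22 members in all, 55.5% of all genes).

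SGSH was higher in HEK293T cells, at 23, 16, 20.8 and 19.3 CPM against 6.17, 5.51, 5.57 and 3.60 CPM in U2OS (log2 fold change −1.71 ± 0.21). CTSO was at 9.57, 5.71, 9.77 and 7.70 CPM against 4.32, 2.75, 1.76 and 2.88 CPM (−1.26). LIPA (−0.94), NAGLU (−0.93), CTSF (−0.85) and GAA (−0.64) were lower in U2OS by less. SGSH and GAA, lower in U2OS than in HEK293T cells under DMSO, were among the members higher with CPT in U2OS, and both statements use the same U2OS DMSO libraries. For the sorting genes 5 of 6 were higher in U2OS, M6PR by 2.31. The V-ATPase subunits split, 6 of 17 higher and 4 lower, with ATP6V0A1 at 5.84 against 74.9 CPM. Of 24 other lysosomal genes tested 10 were higher and 6 lower in U2OS, and GALC, the galactosylceramidase, was higher by 3.68. Of all genes 32% were higher and 30.1% lower.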

How the data were processed

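RNA was sequenced as 3′ tags (Lexogen QuantSeq FWD with UMIs). The authors deposited raw counts for each gene in 32 libraries, from the pipeline of the kit's maker. The genome build is not given in the sources used here. Of the 60107 genes, 56104 had a symbol in GENCODE; 5 summary lines (10.9% to 40.6% of each library) and 92 spike-ins were left out. Replicates are biological repeats per the paper, and p-values measure the spread between them.

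The 39 members and the lists beside them were chosen with earlier results of these data known. Groups came from the labels. Genes above 1 count in 2 or more libraries were kept, scaled with TMM and tested with the quasi-likelihood method of edgeR 4.0.16 under R 4.3.3, with Benjamini-Hochberg adjustment over all genes. The threshold required an adjusted p under 0.05 together with a log2 fold change beyond 1 in either direction. The tests were checked on simulated data. Every library's value is given for members past the threshold in a comparison and for the 8 with the largest changes in U2OS CPT among those at an adjusted p under 0.05 (the named members); of other lists, members past the threshold and up to 4 more, except between the cell lines, where only examples are named. Results for some genes are not reported here. The values by library for CTSB, PSAP, PPT1, LAMP1, SCARB2, TPP1, TFEB and TFEC were added after they were seen. Alternatives were the likelihood ratio test, DESeq2 1.42.0, RLE, filterByExpr, no filter, 1 fit of all groups, other libraries and each library left out. Library totals in place of TMM, and all alternatives for differences between comparisons, were added after seeing the data. Promoter windows came from RefSeq (GRCh38.p14). Intervals and floors cover counting error only.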

Additional observations from a re-analysis of the deposited data

Results flagged for a closer look

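In groups of 4 libraries, 10 of 138 combinations of a named member and a group had 1 library far from the other 3 (Dixon's criterion). Chance gives about 1 in 20 for normally distributed values. Counts near 0, as for CTSK, CTSS and CTSZ below, are not such values, and no excess over chance is read from the number. CTSK was at 0.271 CPM in ATM inhibitor replicate 18 against 1.21 to 1.37 CPM in the others, and at 5.68 CPM in labelled HEK293T CPT replicate 2, the shallowest library, against 0.859 to 1.39 CPM. CTSS was at 0.271 CPM in ATM inhibitor replicate 18 and CTSZ at 0.314 CPM in labelled U2OS ATM KO replicate 16. The other libraries of these groups had no count, so that any count meets the criterion. CTSO stood at 10.5 CPM in labelled U2OS ATM KO replicate 12, against 7.96 to 8.32 CPM. FUCA1 was low in HEK293T DMSO replicate 23, at 31.1 CPM. SMPD1 was high in U2OS CPT replicate 26 (51.2 CPM) and low in labelled HEK293T CPT replicate 2 (16.2 CPM). PPT1 was high in ATM inhibitor replicate 21 (172 CPM) and SCARB2 in U2OS DMSO replicate 31 (263 CPM).

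Fold changes also differed between comparisons by the interaction test in one fit (edgeR, adjusted p under 0.05). The 31 differences below are those of the named members, not of all 39. Named members passed the threshold in a comparison or had 1 of the 8 largest changes in U2OS CPT at an adjusted p under 0.05. Values are log2 fold changes of CPT in U2OS cells minus those of the other comparison. Libraries of the earlier deposit are named by label only, since markers contradict the cell line of those compared here. Against the ATM inhibitor in HEK293T cells they were CTSL (0.95), GAA (1.15), NEU1 (0.74), FUCA1 (0.86), SGSH (1.39), ARSA (1.16), SMPD1 (0.90), NPC2 (0.58), LAMP1 (0.84) and SCARB2 (0.54). Against the libraries labelled U2OS ATM KO they were CTSB (0.69), CTSC (0.80), CTSH (0.99), CTSL (1.57), CTSS (−4.20), GAA (2.20), NAGLU (1.57), NEU1 (−0.58), FUCA1 (1.65), SGSH (2.02), ARSA (1.34), ASAH1 (1.03) and SCARB2 (0.72), where the CTSS value rests on a group without counts and is no measure of size. Against the libraries labelled HEK293T CPT they were CTSB (0.95), CTSH (−0.80), CTSL (0.86), NEU1 (0.84), ARSA (1.68), ASAH1 (0.61), LAMP1 (0.69) and SCARB2 (0.53).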

How the results depend on the processing

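Past the log2 fold change of 1, the 5 members of U2OS CPT became 3 with DESeq2, 3 with filterByExpr and 3 with library totals in place of TMM, and ranged from 3 (without replicate 28) to 7 (without U2OS DMSO replicate 31) when single libraries were left out. At an adjusted p under 0.05 the range was 24 to 27. For the ATM inhibitor the counts stayed at 0 in the settings run. In the libraries labelled U2OS ATM KO the 14 members at an adjusted p under 0.05 became 4 with all 4 libraries of each label, where LAMP1 turned from 0.37 to −0.52 without passing, and single libraries gave 12 to 14, and 5 to 6 past the fold. In the libraries labelled HEK293T CPT, 5 members became 2 with DESeq2, 8 with no filter, 2 with library totals and 0 with all 4 libraries of each label, and single libraries gave 0 (without replicates 4, 6 or 7) to 9 (without replicates 5 or 8), and 0 to 1 past the fold (SGSH without replicate 5). Between the cell lines the ranges were 15 to 19 and 24 to 27. The 16 differences between U2OS CPT and the ATM inhibitor became 10 with library totals. The settings with all 4 libraries of each label add replicate 1 or replicate 17, which had the opposite profile from the rest of their label. That profile was the one of the line their label names. The causes of these moves were not tested. The other counts, 77 of the 86 not leaving out a library, stayed within 1.5 times. No paired analysis was possible because the labels give no replicate number, batch or day that libraries of different groups share. Depth limits CTSS, MAN2B1, IDUA, CTSK and TFEB, which had few counts per library, and CTSZ in HEK293T cells.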
